A study of Homo sapiens with 6 samples.

Results

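The genes described here encode abundant parts of the actin and tubulin cytoskeleton of K562 cells: the cytoplasmic actins ACTB and ACTG1, the tubulins TUBA1B and TUBB, the small actin-binding proteins TMSB4X, TMSB10, PFN1 and CFL1, and the large actin-associated proteins MYH9 and FLNA. They were chosen by name, and all 10 were found among the 60664 genes of the deposited table, 16652 of which were abundant enough to test. TMSB4X, TMSB10, PFN1 and CFL1 have short mRNAs and MYH9 and FLNA have long ones, and these groups were set against each other.

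K562 is a human erythroleukemic cell line. Polysomal RNA, found in the heavy gradient fractions where an mRNA is read by more than 1 ribosome at a time, was sequenced from 3 wild-type samples (RNH1 WT) and 3 samples of cells labelled as knockout for the ribonuclease inhibitor gene (RNH1 KO, made with CRISPR/Cas9), and all samples were treated with cycloheximide before lysis. The methods call the samples of each genotype independent replicates, but neither they nor the labels say how many KO clones of K562 were used or whether each sample was a culture of its own, so the p-values here measure the spread between these samples only. The values, called normalized counts below, are counts per gene after the authors' division by the DESeq2 size factor of each sample, and a level in polysomal RNA depends both on how much of an mRNA the cells hold and on how much of it is loaded with ribosomes. These are bulk samples, in which fewer cells of a type and less RNA per cell cannot be told apart.

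Actin monomers assemble into filaments that carry the cell cortex. Thymosin beta-4 (TMSB4X) and thymosin beta-10 (TMSB10) hold monomers in reserve, profilin-1 (PFN1) delivers them to growing filament ends, and cofilin-1 (CFL1) severs old filaments and returns their subunits. Nonmuscle myosin heavy chain IIA (MYH9) pulls on filaments, and filamin A (FLNA) cross-links them into networks, while alpha- and beta-tubulin (TUBA1B, TUBB) pair to form microtubules. In cells of the blood lineages these proteins set cell shape, movement and the last steps of division.

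Because several of these genes have close relatives, the first 30 bases of their coding sequences on GRCh38 are shown for 2 cases in which reads could be confused, with the bases that differ between the actins in capitals. ACTB and ACTG1 differ at 6 of these bases, and TMSB4X and its processed pseudogene TMSB4XP8 at 0, so the last line below holds for both.
ACTB: atggaTgaTgaTatcgccgcgctCgtcGtC
ACTG1: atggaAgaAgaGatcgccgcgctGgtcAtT
TMSB4X: atgtctgacaaacccgatatggctgagatc
Over the whole coding sequence, ACTB and ACTG1 were identical at 91.2% of 1128 bases, with a longest shared run of 59 bases in their transcripts, and TMSB4X and TMSB10 at 76.7%, with a longest shared run of 10 bases. TUBA1B was closer to its relatives: 97.2% identical to TUBA1A and 97.3% to TUBA1C, with shared runs of 221 and 326 bases. The sources used here do not give how the authors' counting treated reads that fit more than 1 place, so the split of reads between TUBA1B, TUBA1A and TUBA1C is uncertain, and between ACTB and ACTG1 less so.

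Reads in genes numbered 34908202 to 46256928 per sample. For these 10 genes counting error was at most 1.75% of a value, and the SD between the samples of a group was at least 2.13 times it (TMSB10 in KO). The targeted gene RNH1 was at 1865 to 4566 normalized counts in WT and at 997 to 1144 in KO, with the groups apart. RNH1 mRNA was thus still present in KO, at 34.4% of the WT mean, and whether it gives protein was not measured here. The GEO label calls the cells lymphoblasts, but the erythroid genes GATA1, TAL1, KLF1, TFRC, ALAS2, HBG1, HBG2 and HBZ all had means above 1000 normalized counts in WT. Of 10 lymphoid markers 5 were too low to test (MS4A1 at 0 throughout, PAX5 and EBF1 at or below a mean of 0.340 in either group), 3 were higher in KO, 1 was lower and 1 did not pass, and their summed level was 650.4 to 731 normalized counts in WT and 1011 to 1195 in KO. Of the 10 erythroid markers HBE1 was at 0 throughout, 3 were lower in KO (HBG2 and HBZ among them), 0 were higher and 6 did not pass, and their summed level was 116470 to 122329 normalized counts in WT and 85426 to 97165 in KO. The part of either list in the results below was not tested.

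The 10 mRNAs did not move as a group. Of the 10, 3 were lower in KO (TMSB4X, TMSB10 and TUBA1B), 2 were higher (MYH9 and FLNA) and 5 did not pass (ACTB, ACTG1, TUBB, PFN1 and CFL1) at an adjusted p under 0.1 from limma, fitted to log2(normalized count + 1) of all 16652 genes. That makes 5 of 10 called, where 48.2% of all tested genes were called, 24.1% lower and 24.1% higher, so the share called in this group is near the background. In 5 of the 10 the KO and WT samples did not overlap (FLNA, MYH9 and TUBB above WT, TMSB4X and TUBA1B below), where 51.1% of all tested genes did not overlap. The median log2 fold change of the 10, KO over WT, was 0.079, against 0.027 over all tested genes. Its extremes lay far apart, from -1.86 for TMSB4X to 1.85 for FLNA.

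The scaling of the samples bears on these counts. With the deposited size factors 4012 genes were lower and 4010 higher. Upper-quartile scaling moved the median of all genes up by 0.14 on the log2 scale and gave 3226 lower and 5095 higher, and scaling to the library total moved it up by 0.33 and gave 2404 lower and 6691 higher. TMSB4X remained lower and MYH9 and FLNA higher under both. TUBA1B lost its call under both and TMSB10 under the library total, whereas ACTB and TUBB were called higher under both and CFL1 under the library total, so the direction of the 10 as a set depends on the scaling.

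**Figure D1:**
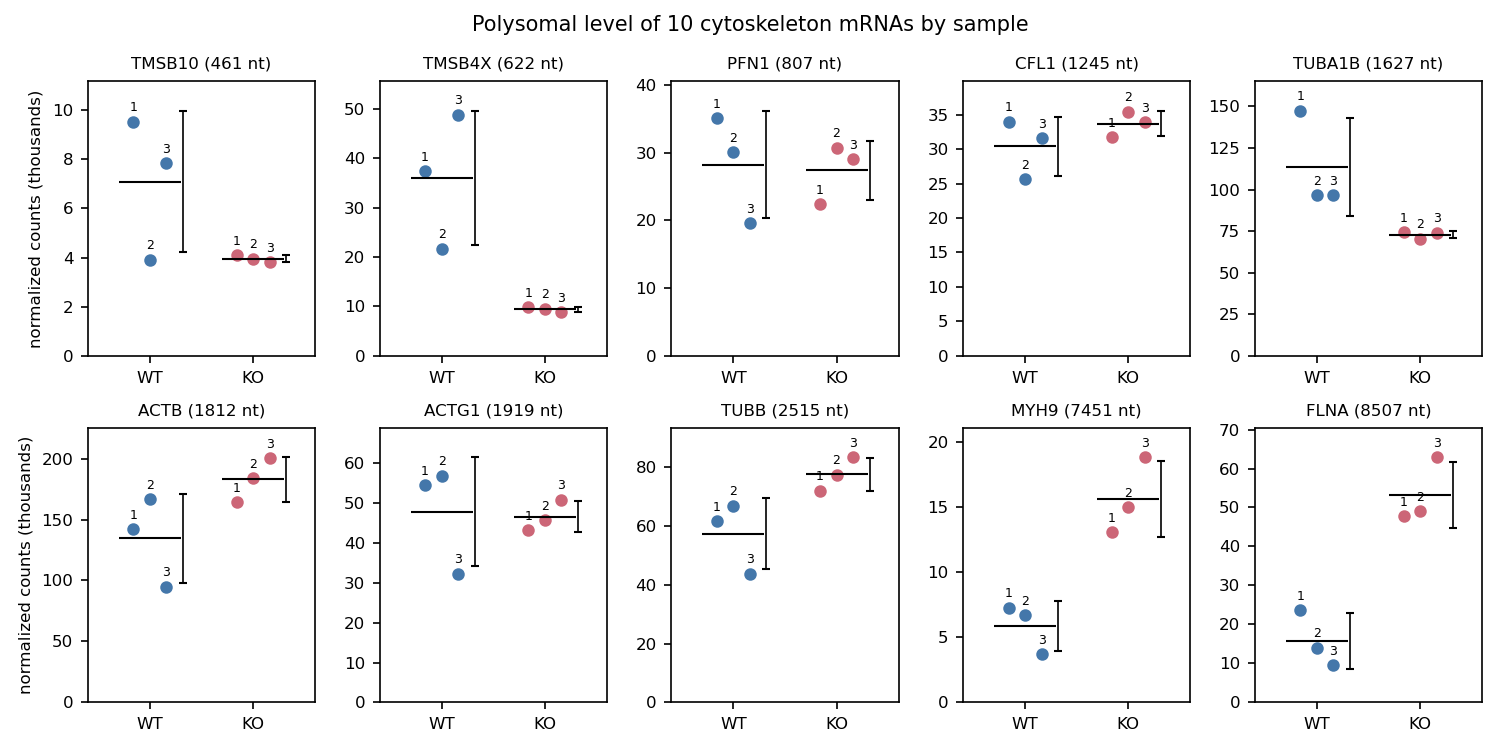
Normalized counts (axes in units of 1000, starting at 0) of the 10 mRNAs in WT (blue) and KO (red) samples, 1 panel per gene in order of transcript length. Points are samples with their replicate number, horizontal lines are group means and the bars beside them are ± 1 SD (n = 3); the KO points of TMSB4X lie between 8843 and 9801, below all WT points, and those of FLNA and MYH9 above all WT points.

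TMSB4X, which encodes the main protein that sequesters actin monomers, had the largest decrease of the 10. On GRCh38 the gene (ENSG00000205542) occupies chromosome X from 12975110 to 12977227, plus strand, and its canonical transcript has 3 exons, 622 nt and a coding sequence of 135 nt. Normalized counts of 37383, 21719 and 48781 were found in WT replicates 1 to 3 (mean 35961 ± 13587, SD, n = 3), against 9801, 9526 and 8843 in KO replicates 1 to 3 (mean 9390 ± 493). The genotypes were fully apart, and the KO samples lay close together while the highest WT sample was 2.25 times the lowest. The KO mean was 26.1% of the WT mean, with a log2 fold change of -1.86 (SE 0.26, 95% interval -2.41 to -1.32, adjusted p = 3.52e-05 from limma). The call held in all 18 alternatives, in which the log2 fold change ranged from -2.19 without WT replicate 2 to -1.02 after a correction for transcript length.

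TMSB10, the close relative of TMSB4X with the same kind of function, fell less. Located on chromosome 2 from 84905656 to 84906671, plus strand (ENSG00000034510), it has 3 exons and the shortest transcript of the 10, at 461 nt. The WT samples had 9517, 3913 and 7832 normalized counts (7087 ± 2875, SD, n = 3) and the KO samples 4086, 3952 and 3816 (3951 ± 135). WT replicate 2 was as low as the KO samples, so the groups overlapped, while WT replicates 1 and 3 were well above KO. The KO mean was 55.8% of WT, with a log2 fold change of -0.75 (SE 0.26, adjusted p = 0.0326 from limma). Single WT samples decided this call: the log2 fold change was -0.49 without WT replicate 1 (adjusted p = 0.153), -0.63 without WT replicate 3 (adjusted p = 0.128) and -1.13 without WT replicate 2 (adjusted p = 0.000359, limma in each).

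The thymosins differed from each other within samples. Per kb of transcript, TMSB4X was 2.91, 4.11 and 4.62 times TMSB10 in the WT samples and 1.78, 1.79 and 1.72 times in the KO samples. These ratios, which no scaling of a sample changes, were lower in every KO sample than in every WT sample, by 1.11 on the log2 scale. With 3 samples against 3, an exact permutation test cannot give a two-sided p below 0.1, so no p is given for the ratios.

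PFN1, the profilin that hands actin monomers to formins and other filament builders, did not pass although it is nearly as short as TMSB4X. The gene, on chromosome 17 from 4945652 to 4949061, minus strand (ENSG00000108518), has a transcript with 3 exons and 807 nt. Its level in WT was 35055, 30083 and 19543 normalized counts (28227 ± 7921, SD, n = 3) and in KO 22349, 30737 and 28981 (27356 ± 4424). The KO samples all fell inside the WT range. The log2 fold change was -0.017 (SE 0.24, 95% interval -0.53 to 0.50, adjusted p = 0.964 from limma).

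CFL1, the cofilin of nonmuscle cells, also did not pass. The gene is on chromosome 11 from 65823022 to 65862026, minus strand (ENSG00000172757), with 4 exons and 1245 nt. It had 33974, 25597 and 31612 normalized counts in WT (30394 ± 4319, SD, n = 3) and 31742, 35419 and 33888 in KO (33683 ± 1847), so the groups overlapped and WT replicate 2 was the only sample clearly below the rest. The log2 fold change was 0.16 (SE 0.21, 95% interval -0.29 to 0.60, adjusted p = 0.582 from limma). Within samples, CFL1 was 0.628, 0.552 and 1.05 times PFN1 per kb in WT and 0.921, 0.747 and 0.758 times in KO, which overlap.

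The long mRNAs went the other way. MYH9 encodes the heavy chain of nonmuscle myosin IIA and is located on chromosome 22 from 36281280 to 36388010, minus strand (ENSG00000100345), with 41 exons and a transcript of 7451 nt. WT samples gave 7265, 6708 and 3681 normalized counts (5885 ± 1929, SD, n = 3) and KO samples 13060, 14980 and 18792 (15611 ± 2918). The lowest KO sample was well above the highest WT sample, and WT replicate 3 was the lowest of all. The KO mean was 2.65 times the WT mean, with a log2 fold change of 1.45 (SE 0.25, 95% interval 0.92 to 1.99, adjusted p = 0.000298 from limma).

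FLNA had the largest increase of the 10. Found on chromosome X from 154348524 to 154374634, minus strand (ENSG00000196924), it has 48 exons and a transcript of 8507 nt, of which 7944 nt are coding. Normalized counts were 23693, 14018 and 9485 in WT (15732 ± 7258, SD, n = 3) and 47693, 49123 and 62851 in KO (53222 ± 8369). The WT samples were spread over 2.50-fold, and still the lowest KO sample was above the highest of them. The KO mean was 3.38 times the WT mean, with a log2 fold change of 1.85 (SE 0.28, 95% interval 1.26 to 2.44, adjusted p = 7.89e-05 from limma). The calls of MYH9 and FLNA held in all 18 alternatives, with log2 fold changes of 1.05 to 1.78 and 1.45 to 2.20. FLNA was 2.86, 1.83 and 2.26 times MYH9 per kb in WT and 3.20, 2.87 and 2.93 times in KO. These ratios only just missed overlapping, at WT replicate 1 and KO replicate 2. Their mean difference was 0.40 on the log2 scale, beside an SD of 0.32 between the WT samples.

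Set against each other within each sample, the short mRNAs lost ground to the long ones in every pairing. The mean log2 level of TMSB4X, TMSB10, PFN1 and CFL1 minus that of MYH9 and FLNA was 0.96, 0.72 and 1.90 in the WT samples (1.19 ± 0.62, SD, n = 3) and -0.94, -0.93 and -1.35 in the KO samples (-1.07 ± 0.24). WT replicate 3 stood highest and the KO samples lay apart from WT, with a difference of -2.27. Of the pairs of a short and a long mRNA, all 8 had ratios per kb that did not overlap between KO and WT. These are not 8 separate results, since all are ratios to MYH9 or FLNA, which by themselves did not overlap. The ratios of PFN1 and CFL1, which did not pass, mainly carry the rise of MYH9 and FLNA. Single genes did not overlap in 51.1% of all tested, and the share for other pairs of a short and a long gene was not counted. The ratio of TMSB4X to FLNA moved most, from 21.6, 21.2 and 70.3 in WT to 2.81, 2.65 and 1.92 in KO, and that of CFL1 to MYH9 least, by -1.30 on the log2 scale. PFN1, which itself did not pass, was 44.5, 41.4 and 49.0 times MYH9 in WT and 15.8, 18.9 and 14.2 times in KO.

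**Figure D2:**
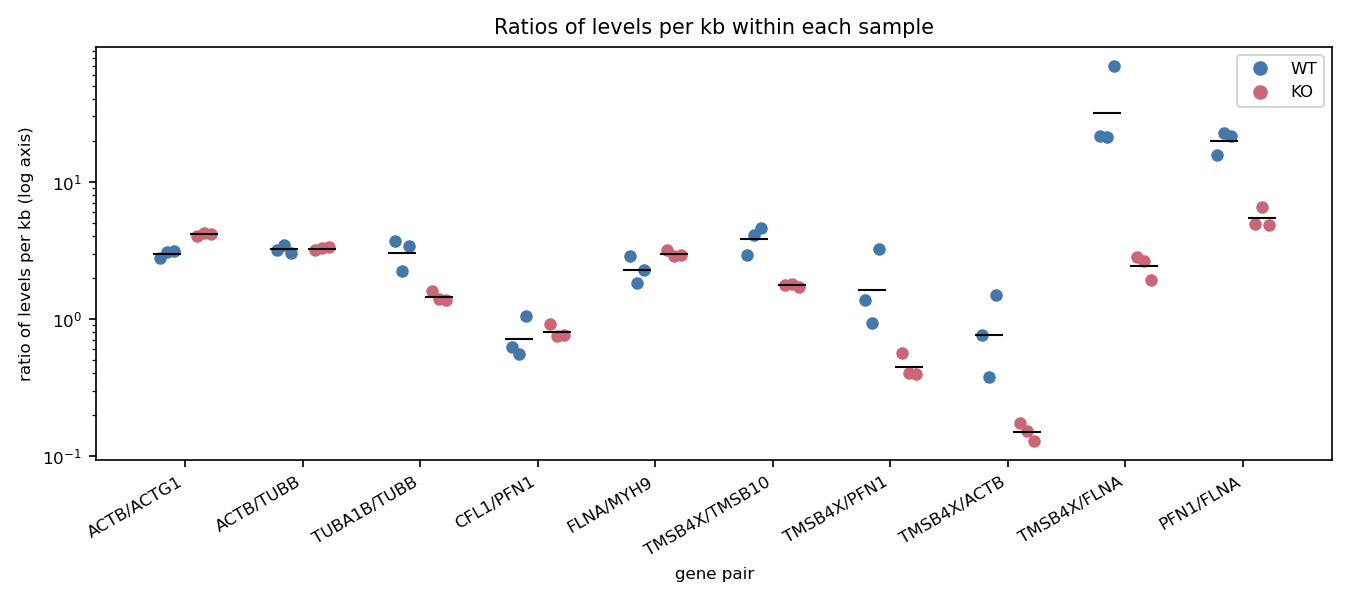
Ratios of the levels per kb of transcript of 2 genes within each sample (log axis), WT in blue and KO in red, with lines at the geometric mean of 3 samples. ACTB/TUBB and CFL1/PFN1 overlap between the genotypes, while TMSB4X/FLNA and PFN1/FLNA are lower in every KO sample.

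ACTB, which encodes beta-actin and had the highest mean of the 10 in both genotypes, did not pass with the deposited scaling. Its locus on chromosome 7 runs from 5526409 to 5563902, minus strand (ENSG00000075624), and its transcript has 6 exons and 1812 nt. The samples had 142098, 166568 and 94914 normalized counts in WT (134527 ± 36422, SD, n = 3) and 164354, 183777 and 200501 in KO (182878 ± 18091). WT replicate 2 reached into the KO range, and WT replicate 3 was far below the others. In WT replicates 1 and 3 the counts of TUBA1B were above those of ACTB. The log2 fold change was 0.48 (SE 0.25, 95% interval -0.04 to 1.00, adjusted p = 0.135 from limma), and it was 0.65 without WT replicate 2 (adjusted p = 0.0251) and 0.24 without WT replicate 3 (adjusted p = 0.358).

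ACTG1, which encodes gamma-actin, a protein nearly identical to beta-actin, had close means in WT and KO and did not pass. Its locus is on chromosome 17 from 81509413 to 81523847, minus strand (ENSG00000184009), and it has 6 exons and 1919 nt. It was at 54452, 56830 and 32247 normalized counts in WT (47843 ± 13558, SD, n = 3) and 43176, 45590 and 50791 in KO (46519 ± 3891), with a log2 fold change of 0.00 (SE 0.24, 95% interval -0.51 to 0.51, adjusted p = 0.998 from limma). It was the only member called in none of the 18 alternatives. The actin mRNAs nevertheless shifted relative to each other, since ACTB was 2.76, 3.10 and 3.12 times ACTG1 per kb in WT and 4.03, 4.27 and 4.18 times in KO. The WT ratios and the KO ratios were each tight and did not overlap, and the difference was 0.48 on the log2 scale.

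TUBA1B, the main alpha-tubulin mRNA of these cells, was lower in KO. On chromosome 12 it spans 49127782 to 49131397, minus strand (ENSG00000123416), with 4 exons and a transcript of 1627 nt. In WT it reached 147265, 96723 and 96447 normalized counts (113478 ± 29261, SD, n = 3) and in KO 74298, 70536 and 73936 (72923 ± 2076). All KO samples were below all WT samples, and WT replicate 1 stood far above the other WT samples. The KO mean was 64.3% of WT, with a log2 fold change of -0.61 (SE 0.23, 95% interval -1.10 to -0.12, adjusted p = 0.0461 from limma). The call was lost in 9 of the 18 alternatives, among them those without WT replicate 1 (-0.41, adjusted p = 0.176) and without KO replicate 1, 2 or 3 (adjusted p = 0.135, 0.164 and 0.122).

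TUBB, the main beta-tubulin mRNA and partner of TUBA1B in the tubulin dimer, was above WT in every KO sample but did not pass. Its gene is on chromosome 6 from 30717435 to 30725538, plus strand (ENSG00000196230), with 4 exons and 2515 nt. There were 61726, 67019 and 43754 normalized counts in WT (57499.5 ± 12195, SD, n = 3) and 72016, 77550 and 83406 in KO (77657 ± 5696). The log2 fold change was 0.45 (SE 0.23, 95% interval -0.03 to 0.94, adjusted p = 0.124 from limma), and it was 0.58 without WT replicate 2 (adjusted p = 0.0314) and 0.27 without WT replicate 3 (adjusted p = 0.292). The adjusted p was 0.0859 by DESeq2 on the recovered reads and 0.276 with a replicate block. TUBA1B was 3.69, 2.23 and 3.41 times TUBB per kb in WT and 1.59, 1.41 and 1.37 times in KO, a difference of -1.06 on the log2 scale without overlap. ACTB and TUBB kept their ratio, at 3.20, 3.45 and 3.01 in WT and 3.17, 3.29 and 3.34 in KO.

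The spread of the WT samples runs through all of these values. The SD of the log2 values was larger in WT than in KO for 10 of the 10 genes, as for 86.1% of all tested genes. WT replicate 3 was the lowest sample for ACTB, ACTG1, TUBB, PFN1, MYH9 and FLNA and the highest for TMSB4X, and WT replicate 2 was the lowest WT sample for TMSB4X, TMSB10 and CFL1. The 10 mRNAs together made up 1.14%, 1.10% and 0.861% of the reads in WT replicates 1, 2 and 3 and 1.35%, 1.46% and 1.46% in the KO replicates.

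Divided by transcript length, so that genes can be compared, the levels ran over a wide range. In WT the order of the mean levels per kb was ACTB (74242 ± 20100 normalized counts per kb, SD, n = 3), TUBA1B (69747 ± 17984), TMSB4X (57815 ± 21844), PFN1 (34978), ACTG1 (24931), CFL1 (24413), TUBB (22863), TMSB10 (15374), FLNA (1849 ± 853) and MYH9 (790 ± 259). From ACTB to TMSB10 each gene overlapped its neighbour in this order, and the first gaps beyond the spread of the samples were those below TMSB10 and below FLNA. In KO the order was ACTB (100926 ± 9984), TUBA1B (44821 ± 1276), PFN1 (33898), TUBB (30878), CFL1 (27055), ACTG1 (24241), TMSB4X (15097 ± 793), TMSB10 (8572), FLNA (6256 ± 984) and MYH9 (2095 ± 392). Here PFN1 and TUBB overlapped, as did CFL1 and ACTG1, and all other neighbours were apart. TMSB4X went from rank 3 to rank 7.

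The fold changes of the 10 mRNAs followed the length of their transcripts, with a Spearman correlation of 0.88 over the 10 genes, given as a description because the members were picked in part for their length and share the same 6 samples. Across 11959 protein-coding genes the same correlation was 0.35. The share of G and C bases in the transcripts differed as well. It was lowest in TMSB4X (44.4%) and highest in FLNA (62.3%) and MYH9 (58.3%), and PFN1, which did not pass, was at 58.2%. The part of base content in the fold changes was not tested. When the 11959 genes were divided into 10 groups by transcript length, the shortest group (207 to 1255 nt, 1196 genes) had a median log2 fold change of -0.79. In that group, with TMSB4X, TMSB10, PFN1 and CFL1 among its genes, 62.4% were lower and 5.27% higher. The longest group (7428 nt and more, with MYH9 and FLNA) had a median of 0.40, with 11.1% lower and 45.2% higher.

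Against tested genes of similar length and any abundance the members took different places. TMSB4X was 1.07 below the median log2 fold change of its length group, with 15.0% of that group lower still, while TMSB10 was at the median (0.046 above it). PFN1 and CFL1 were 0.78 and 0.95 above the median of the same group, with 82.0% and 86.0% of its genes below them. CFL1, at 1245 nt, lies close to the upper limit of that group, 1255 nt. The next group, from 1256 to 1782 nt, has a median of -0.30, so the place of CFL1 depends on where the groups are cut. The correction below also uses 10 length groups and shares this limit. MYH9 and FLNA were 1.06 and 1.45 above that of the longest group, with 93.2% and 96.2% of its genes below them. Correcting each sample for transcript length left TMSB4X lower (-1.02) and MYH9 and FLNA higher (1.05 and 1.45), took away the calls of TUBA1B (-0.30, adjusted p = 0.188 from limma) and TMSB10 (0.092, adjusted p = 0.764), and gave calls as higher for PFN1 (0.82, adjusted p = 0.017), CFL1 (1.00, adjusted p = 0.000589), ACTB (0.66, adjusted p = 0.0221) and TUBB (0.50, adjusted p = 0.0436). The difference between short and long members fell from -2.27 to -1.03 with this correction.

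**Figure D3:**
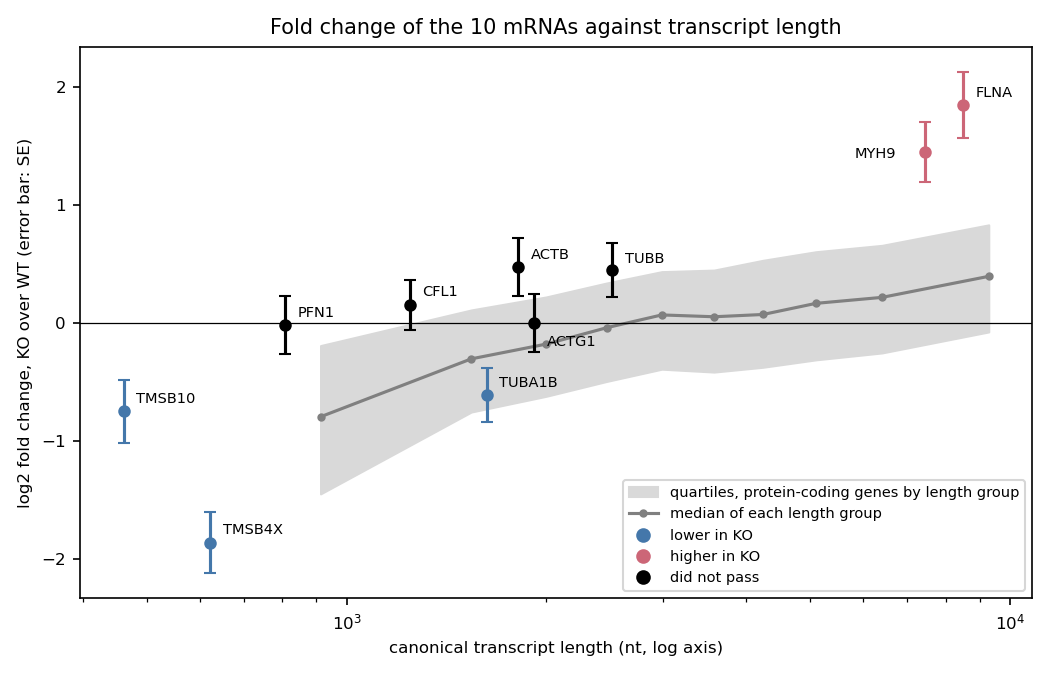
Log2 fold change of KO over WT (vertical, bars are SE) of the 10 mRNAs against the length of the canonical transcript (nt, log axis), colored by call, over the median (line) and quartiles (gray band) of 10 length groups of protein-coding genes. The band starts at 913 nt, the median length of the shortest group. TMSB4X has the lowest value of the 10, and CFL1, ACTB, TUBB, MYH9 and FLNA lie above the band.

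Most other short mRNAs of similar abundance fell. Of 200 protein-coding genes below 1000 nt whose mean reached 5000 normalized counts, 183 were lower in KO, 0 were higher and 17 did not pass, with a median log2 fold change of -1.62. TMSB4X (-1.86) and TMSB10 (-0.75) were among those lower, and PFN1 (-0.017) among the 17 that did not pass. Beside these abundant short genes TMSB4X thus lay closer to the median than TMSB10 did, unlike in the length group of any abundance. Without the ribosomal protein genes the counts were 144, 0 and 15 of 159, with a median of -1.56. Of the 771 equally abundant genes of 4000 nt and more, 75 were lower, 342 higher and 354 did not pass.

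The other actin and tubulin genes were looked at next. The muscle actins ACTA1, ACTA2, ACTC1 and ACTG2 were at or near 0 in every sample and were not tested. Of 21 tubulin isotypes 18 were tested, and 2 were lower, 6 higher and 10 did not pass, with a median log2 fold change of 0.34. For this list and those that follow, the shares over all tested genes were 24.1% lower and 24.1% higher. Beside TUBA1B, TUBD1, which encodes the delta-tubulin of centrioles, was lower (-0.62, SE 0.20). Leaving out 1 sample gave a count of 0 to 2 lower, with 0 without KO replicate 2 and 1 without WT replicate 1, KO replicate 1 or KO replicate 3, and the library total also gave 0. The count higher was 3 with a mean of at least 100, where fewer genes were tested, and 10 with the replicate block and the correction for transcript length. TUBB4B, another beta-tubulin, went from 13830 ± 4542 normalized counts in WT to 22762 ± 3110 in KO (SD, n = 3 each), with a log2 fold change of 0.76 (SE 0.24) and no overlap. TUBA4A was also higher, from 150 ± 30.4 to 337 ± 42.1 (1.18, SE 0.24), and TUBB4A, at 160 ± 67.7 and 238 ± 22.2, passed (0.67, SE 0.31) but lost its call when WT replicate 3 or any KO replicate was left out (adjusted p = 0.392 without WT replicate 3 and 0.111, 0.186 and 0.188 without KO replicate 1, 2 and 3, limma). TUBA1C, at 33997 ± 6730 and 31822 ± 1655, did not pass (-0.077, SE 0.22).

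Among the proteins that bind actin monomers or depolymerize filaments, TMSB4X and TMSB10 were not alone. Of 18 such genes 13 were tested, and 7 were lower, 0 higher and 6 did not pass, with a median of -0.75. The share lower among all tested genes was 24.1%. The library total gave 5 lower and 2 higher, the correction for transcript length 5 lower and 3 higher, and 1 was called higher with upper-quartile scaling or without WT replicate 2. GMFB, a glia maturation factor that debranches Arp2/3 networks, went from 4626 ± 2526 normalized counts to 1264 ± 202 (-1.75, SE 0.29), and CFL2, the muscle cofilin, from 492 ± 286 to 185 ± 35.9 (-1.27, SE 0.32). DSTN, the third member of the cofilin family, went from 2136 ± 722 to 1011 ± 49.6 (-1.03, SE 0.23). In all of these KO and WT did not overlap. CFL1, with 33683 normalized counts in KO, thus differed in call from CFL2 and DSTN, though the differences between the cofilins were not tested.

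Of the subunits and relatives of the Arp2/3 complex, which starts branched filaments, 4 of 10 were lower, 0 higher and 6 did not pass. Their median log2 fold change was -0.0041, and the share lower among all tested genes was 24.1%. The lower ones were ARPC1A, from 808 ± 211 to 329 ± 6.38 normalized counts (SD, n = 3 each, log2 fold change -1.26, SE 0.23), ARPC3, from 9848 ± 1491 to 4467 ± 560 (-1.14, SE 0.20), ARPC4 (-0.75, SE 0.20) and ARPC5 (-0.65, SE 0.20). The actin-related subunits ACTR2 and ACTR3, which form the core of the complex, did not pass (0.30 and 0.00, SE 0.24 and 0.23). With the library total 2 were lower and 3 higher, and 1 was called higher with the correction for transcript length or without WT replicate 2. ARPC3 lost its call with that correction (-0.30, adjusted p = 0.243 from limma) and ARPC4 with the library total (-0.42, adjusted p = 0.108) and with the correction and the replicate block together (-0.45, adjusted p = 0.136). The differences between subunits were not tested.

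The activators and formins upstream of filament growth included 7 higher, 1 lower and 8 not passing among 16 tested of 18 (median 0.38). In either direction the share over all tested genes was 24.1%. DIAPH1, a formin that elongates profilin-bound actin, rose from 10350 ± 3127 to 25901 ± 3897 normalized counts (1.36, SE 0.24), and FMNL1, the formin of leukocytes, from 1106 ± 187 to 2232 ± 234 (1.02, SE 0.20). BRK1, a very small subunit of the WAVE complex, fell from 4133 ± 1181 to 1767 ± 103 (-1.18, SE 0.22). BRK1 lost its call with the correction for transcript length (-0.34, adjusted p = 0.141 from limma). The number called lower was 4 without WT replicate 1, and that called higher 11 with the library total and 4 with the replicate block and the length correction. Of 7 genes that cap filament ends 2 were lower, 1 higher and 4 did not pass (median 0.16). Both alpha subunits of capping protein fell, CAPZA1 from 17485 ± 4838 to 7889 ± 941 (-1.12, SE 0.23) and CAPZA2 from 6582 ± 1744 to 3004 ± 323 (-1.10, SE 0.22), whereas the beta subunit CAPZB, at 5654 ± 986 and 6900 ± 90.0, did not pass (0.30, SE 0.20). GSN, which severs and caps filaments, rose from 199 ± 52.5 to 435 ± 53.9 (1.15, SE 0.24). The number called higher was 2 without WT replicate 1 or with upper-quartile scaling, and 3 without WT replicate 2, with the library total or with the length correction.

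MYH9 works as a hexamer with light chains, and most of its light-chain mRNAs moved the other way. Of 8 nonmuscle myosin II genes 7 were tested, and 4 were lower, 2 higher and 1 did not pass (median -0.61). Among all tested genes 24.1% were lower and 24.1% higher. The heavy chains MYH9 and MYH10 were the higher ones, MYH10 going from 7265 ± 2164 to 15122 ± 2466 normalized counts (SD, n = 3 each, log2 fold change 1.09, SE 0.24). The lower ones were all light chains: MYL6 (-1.17, SE 0.27), MYL12B (-0.97, SE 0.20), MYL12A (-0.77, SE 0.20) and MYL6B (-0.61, SE 0.25). MYL6 was at 22388, 10711 and 23612 in WT and 9067, 8464 and 6532 in KO, so WT replicate 2 was again low but above KO. MYL9, the remaining light chain, did not pass (-0.43, SE 0.27). The heavy chain transcripts are 7451 and 7707 nt long and those of the 4 lower light chains 708 to 1163 nt, and with the correction for transcript length 0 of the light chains were called lower.

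FLNA was part of a wider group that rose. Of 15 large proteins that cross-link actin or tie it to membranes and adhesions, 15 were higher, 0 were lower and 0 did not pass. Their median log2 fold change was 1.10, and 14 of them are not members. Of all tested genes 24.1% were higher. The median transcript of this list has 9159 nt, and of protein-coding genes of 7428 nt and more 45.2% were higher, with a median of 0.40. TLN1, which links integrins to actin, went from 7716 ± 2979 to 20800 ± 2572 normalized counts (1.50, SE 0.26), ACTN4, an alpha-actinin, from 8057 ± 2959 to 19918 ± 2839 (1.36, SE 0.25), and SPTBN1, a spectrin of the membrane skeleton, from 9199 ± 2264 to 23329 ± 3758 (1.36, SE 0.23). FLNC, another filamin, rose by 1.10 (SE 0.26). UTRN was at 0, 0 and 6.80 in WT and 64.6, 66.3 and 67.2 in KO, so its fitted value, the point at the far right of the plot of gene lists, rests on hardly any WT reads. The count called higher was 12 to 15 in all alternatives, lowest with the correction for transcript length, and 0 were called lower in any.

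**Figure D4:**
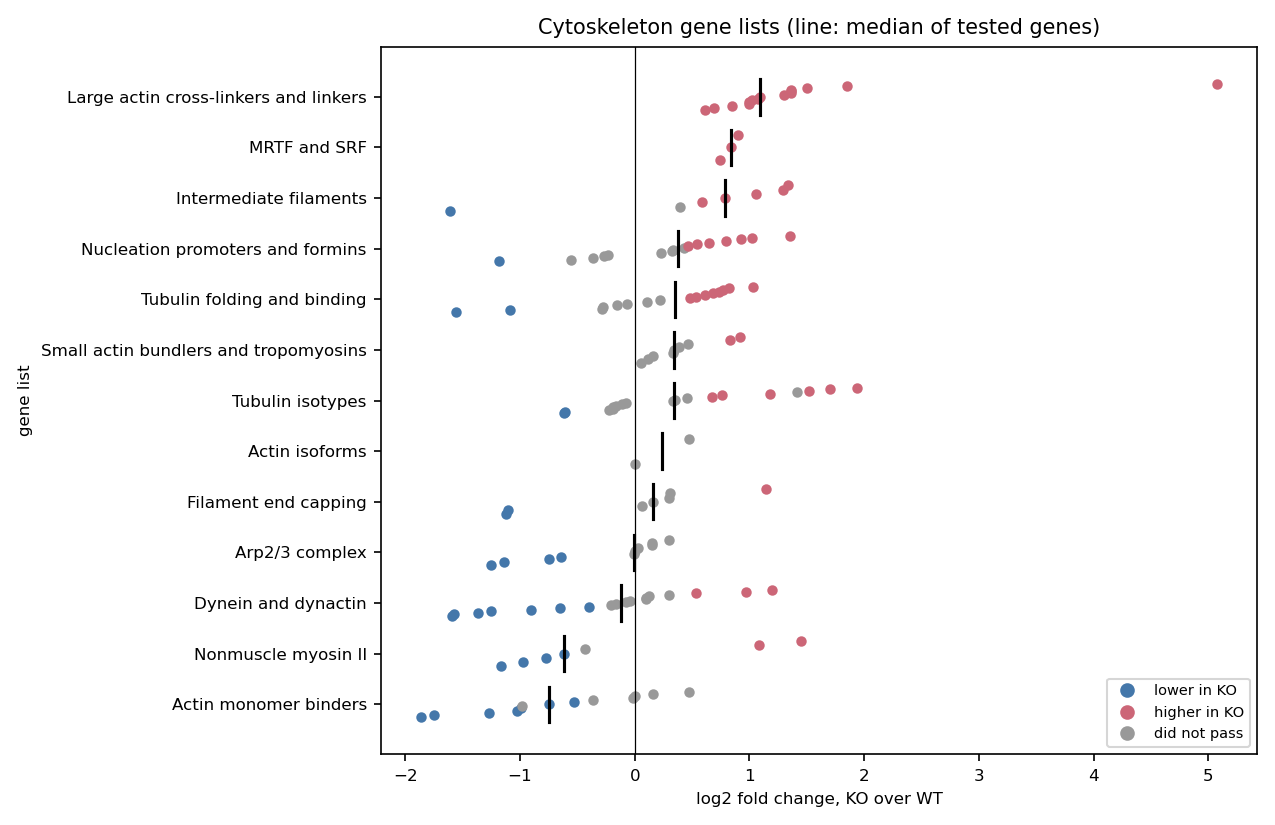
Log2 fold change of KO over WT of the tested genes of 13 cytoskeleton lists, 1 point per gene, blue for lower, red for higher and gray for not passing, with a black line at each median. The large cross-linkers lie to the right of 0 without exception and the monomer binders mostly to the left; the list medians run from -0.75 to 1.10.

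Smaller bundling proteins moved less. Of 10 bundlers and tropomyosins 9 were tested, and 2 were higher, 0 lower and 7 did not pass (median 0.34). The higher ones were FSCN1, the fascin of parallel bundles, from 11789 ± 5235 to 20633 ± 3089 normalized counts (0.92, SE 0.30), and TPM4, from 4208 ± 1731 to 7145 ± 847 (0.83, SE 0.25). Without WT replicate 2, with upper-quartile scaling or with the length correction 5 were called higher, and with the library total 6. TAGLN2, with 16513 ± 1394 in KO and 12813 ± 2864 in WT, did not pass (0.39, SE 0.22).

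On the microtubule side, 16 genes that fold tubulin or bind microtubules held 2 lower, 8 higher and 6 not passing (median 0.35). The share higher among all tested genes was 24.1%, and so was the share lower. TBCA, the small chaperone that receives beta-tubulin, went from 7338 ± 1228 to 2483 ± 228 normalized counts (-1.55, SE 0.20), and STMN1, which sequesters tubulin dimers much as thymosin sequesters actin, from 29582 ± 5747 to 13778 ± 877 (-1.09, SE 0.21). TBCD, a much longer chaperone mRNA, rose from 2556 ± 618 to 5122 ± 492 (1.03, SE 0.21). Without WT replicate 3 the counts were 4 lower and 5 higher, and 5 were also higher without KO replicate 2 or 3 and with the replicate block and the length correction.

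Of 18 dynein and dynactin genes 7 were lower, 3 higher and 8 did not pass (median -0.12), where 24.1% of all tested genes were lower and 24.1% higher. The higher ones were DYNC1H1, the motor heavy chain (0.97, SE 0.24), DCTN1, the largest dynactin subunit (1.20, SE 0.23), and DYNC1I2, an intermediate chain (0.54, SE 0.20). Small subunits were among the lower ones, with DCTN6 at -1.59 (SE 0.24), DYNLT3 at -1.58 (SE 0.27), DYNLRB1 at -1.37 (SE 0.24) and DYNLL1 at -1.26 (SE 0.22). The count higher was 6 with the library total and 5 with the length correction. With that correction and the replicate block 3 were lower, and DYNLRB1 lost its call (-0.53, adjusted p = 0.159 from limma).

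Of the intermediate filament genes 5 of 7 were higher, 1 lower and 1 did not pass (median 0.79), where 24.1% of all tested genes were higher. Their median transcript length was 2154 nt, and of protein-coding genes of 1783 to 2225 nt 12.5% were higher. VIM, the vimentin of mesenchymal and blood cells, was at 34314, 44056 and 26288 normalized counts in WT and 53063, 53845 and 71488 in KO (0.79, SE 0.24), without overlap. The lamins LMNA (1.34, SE 0.25), LMNB1 (1.29, SE 0.26) and LMNB2 (1.06, SE 0.27) rose, and KRT10, a keratin of the epidermis, fell (-1.61, SE 0.25).

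The 3 transcription factor genes tied to the pool of free actin monomers were all higher, where 24.1% of all tested genes were higher. Their median transcript length was 4522 nt, and of protein-coding genes of 3901 to 4634 nt 27.1% were higher. MRTFB lost its call with the replicate block and the length correction (0.44, adjusted p = 0.157 from limma). MRTFA, which actin monomers hold in the cytoplasm, went from 1254 ± 222 to 2328 ± 249 normalized counts (0.90, SE 0.20), MRTFB from 1164 ± 184 to 2070 ± 98.4 (0.84, SE 0.19) and their partner SRF from 1906 ± 368 to 3180 ± 574 (0.74, SE 0.21). Among the members, ACTB, ACTG1, MYH9 and FLNA are known targets of SRF, and their calls, given above, were not alike.

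Over the 13 lists together, 141 of 157 genes were tested, and 30 were lower, 52 higher and 59 did not pass, with a median of 0.23. Among the 27 with transcripts below 1500 nt 17 were lower, 1 was higher (the keratin KRT18, 0.59, SE 0.23) and 9 did not pass. Among the 52 above 4000 nt 4 were lower, 34 higher and 14 did not pass. The 4 long ones that fell were CFL2, GMFB, ARPC5 and CAPZA2. They are long as whole transcripts, while their coding sequences have 501, 429, 456 and 861 nt, in that order. The part of coding length in the fold changes was not tested. Over all tested genes 24.1% were lower and 24.1% higher. Of protein-coding genes in the shortest length group (207 to 1255 nt) 62.4% were lower and 5.27% higher. The short genes of these lists were thus near the share of short genes at large. In the length groups from 3901 nt upward 11.1% to 20.8% were lower and 27.1% to 45.2% higher. The limits of those groups differ from the 1500 and 4000 nt used here.

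Few reads were counted for pseudogenes of the members. Of 81 rows named as pseudogenes of a member, 31 had a read and 8 were tested, with 1 lower, 3 higher and 4 not passing. The most abundant was TMSB4XP8, on the minus strand of chromosome 4 from 90838903 to 90839037, an intronless copy annotated over 135 nt of which 134 are identical to the TMSB4X coding sequence. It was at 533, 86.5 and 830 normalized counts in WT and 25.8, 36.7 and 25.8 in KO, low in the same WT sample as TMSB4X. The longest run that it shares with the TMSB4X transcript has 89 bases. How far its reads can be told apart from those of TMSB4X was not tested. Its call (-3.49, SE 0.83, adjusted p = 0.0181 from limma) was lost without any KO replicate (adjusted p = 0.126 to 0.155). ACTG1P17 and ACTBP4, the next most abundant, were at means of 65.2 and 28.8 in WT and 47.8 and 55.0 in KO, far below the counts of the actins. Whether the actins lost reads that also fit pseudogenes was not tested.

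The genes whose levels were most like those of TMSB4X over the 6 samples, among 6941 whose mean reached 1000 normalized counts, were RPS12, DUSP12 and RPS18, each with a Pearson r of 0.999 on log2 values. For MYH9 they were HCLS1, GRIPAP1 and INPP5D, also at 0.999. The likeness includes the difference between the genotypes. The log2 fold changes were -1.85 for RPS12, -0.86 for DUSP12 and -2.03 for RPS18 beside -1.86 for TMSB4X, and 1.02, 1.02 and 0.96 for HCLS1, GRIPAP1 and INPP5D beside 1.45 for MYH9.

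**Figure D5:**
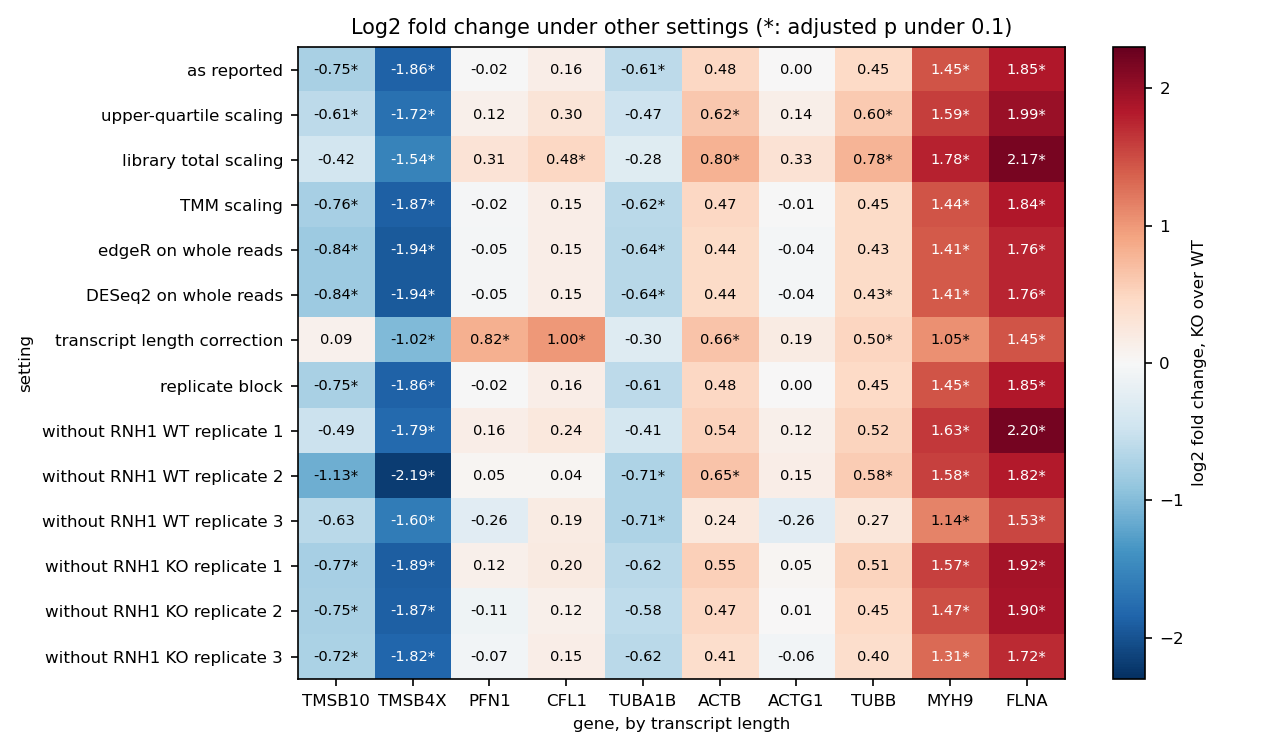
Log2 fold change of KO over WT of the 10 mRNAs (columns, by transcript length) under the deposited scaling and 13 other settings (rows), with an asterisk for an adjusted p under 0.1. TMSB4X, MYH9 and FLNA carry an asterisk in every row, ACTG1 in none, and TUBA1B and TMSB10 in some.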

How the data were processed

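The data are polysomal RNA-seq of K562 cells, 3 samples per genotype. From stranded libraries the authors aligned reads to GRCh38 (HISAT2), obtained counts per Ensembl gene (featureCounts) and scaled each sample by its DESeq2 size factor. Versions in the submitters' processing notes are 2.2.1 for HISAT2, 2.0.1 for featureCounts and 1.36.0 for DESeq2, and the methods text names other versions. The deposited values are this normalized signal of each sample. Dividing them by the smallest nonzero value of the sample gave whole reads for 100% of nonzero values (tolerance 1e-06). The deposited table also holds the authors' means, fold changes and p-values of their own comparison, which were not used. All sample columns were mapped, leaving 0 unmapped. Of 60664 gene identifiers 60463 matched a table of gene names.

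Genes with a mean of at least 10 (16652) were compared with limma 3.58.1 (trend, robust) in R 4.3.3 on log2(value + 1) with genotype as the only term, and called at a Benjamini-Hochberg adjusted p under 0.1. The fold changes share this log2 scale with its added 1, and are relative to the other transcripts of a sample. Reads were also tested with edgeR 4.0.16 and DESeq2 1.42.0. Other alternatives were upper-quartile, library total and TMM scaling, pseudocounts of 0.5 and 5, no filter or a mean of at least 100, a correction for transcript length, a replicate block and leaving out each sample, 18 in all. The limma test alone was checked on simulated data, in which few genes changed and transcript length played no part. That check does not cover the effects of scaling and length described above. Transcript lengths, sequences and gene positions were taken from GENCODE 44 on GRCh38 (canonical transcripts). The genes named are the 10 members, RNH1, up to 3 called genes per list with a mean of at least 100 and the largest absolute change, the 3 most abundant member pseudogenes and the 3 genes most like TMSB4X and MYH9. Any other gene was picked once values were known. Some results that this rule covers are not reported here. The members, lists and alternatives were chosen with earlier results of these data known. Tables and figures were made in Python 3.11.15 (pandas 2.3.3, numpy 2.4.6, matplotlib 3.10.9).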

Additional observations from a re-analysis of the deposited data

How the results depend on the processing

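TMSB4X, MYH9 and FLNA kept direction and call under all 18 alternatives. Against 3 members lower and 2 higher, upper-quartile scaling gave 4 higher, the library total 1 lower and 5 higher, and the correction for transcript length 1 lower and 6 higher, with or without the replicate block. That correction turned PFN1 to 0.82 and TMSB10 to 0.092 on the log2 scale, alone and with the block, and took the difference between short and long members to -1.03 in both, since it subtracts, in each sample, the median deviation of the genes of each length group. Leaving out 1 sample gave 1 to 3 members lower (1 without WT replicate 1), 2 to 4 higher (4 without WT replicate 2) and a difference of -2.50 to -1.91.

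Of all genes, 2404 were lower and 6691 higher with the library total, 2614 higher with a mean of at least 100, where fewer genes were tested, and 2526 lower and 2368 higher with the block and the length correction. Leaving out 1 sample gave 3057 to 4361 lower and 2778 to 4575 higher. The replicate block alone gave 3310 lower and 3243 higher and took the call of TUBA1B (adjusted p = 0.131 from limma). The replicate numbers showed no pairing: deviations of same-numbered samples correlated at -0.16, -0.19 and -0.27, and no sample correlated best with its own number. Correlations were positive for WT replicate 1 with KO replicate 2 (0.24), WT replicate 2 with KO replicate 3 (0.27) and WT replicate 3 with KO replicate 1 (0.28). Whether any samples were prepared together was not tested. For the 49 named genes, 820 values under the alternatives kept direction and call, 35 lost and 15 gained a call and 4 reversed. Of the list counts 452 stayed within 1.5 times and 52 did not. Counting error was at most 1.75% of a member's value, so the spread of 3 samples limits these values more than depth.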
